A study of Mus musculus with 2 samples.

Results

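The ribosomal protein genes are the genes for the proteins that, with ribosomal RNA, build the large and the small subunit of the cytoplasmic ribosome. The members were chosen by name alone: every gene column that starts with Rpl or Rps and a digit, with Rplp0, Rplp1, Rplp2 and Rpsa, and without names that contain -ps and without the Rps6k kinases. This gave 87 members among 25289 genes, 53 with a large-subunit (Rpl) name and 34 with a small-subunit (Rps) name. RNA came from stromal cells of mouse bone marrow and was counted cell by cell with inDrops, a droplet method that tags the RNA of each cell with a cell barcode. Both samples form 1 group in the labels: Stroma1, made of libraries 1.1 and 1.2, and Stroma2, made of libraries 2.1, 2.2 and 2.3, came from mice of the strain spelled C56BL/6, aged 8 to 16 weeks, with no treatment named. Femurs, tibiae and pelvic bones had been crushed and digested for 45 min at 37 °C, and the cells were sorted as CD45-, Ter119- and CD31-. Nothing in the labels ties the samples to separate animals, so p-values cover no known spread between animals. In tests between cell classes they measure only how the differences between classes vary from one of these samples to the other, which may be technical.

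The authors' filter passed 948 cells of Stroma1 and 1899 cells of Stroma2 and the authors gave each a class. The classes, in the authors' names, were Adipocyte progenitor and Pre-adipocyte on the fat side, Osteoblast progenitor, Pre-osteoblast/chondrocyte, Pro-osteoblast and Pro-chondrocyte on the bone and cartilage side, and MSC, the large class of Cxcl12-rich stroma to which the others are compared here. Passing cells held 5346903 counts, of which 273901 (5.12%) were in members. Some cell barcodes occurred in more than 1 library of a sample: 32 in Stroma1, 30 of them in the same class each time, and 203 in Stroma2, 173 of them in the same class. Pairs of libraries from the same sample shared 32 to 104 barcodes, and pairs from different samples 2 to 4. Libraries of a sample may thus hold some of the same cells, which was not tested. Keeping each barcode once per sample moved none of the counts of called members given below by over 1.5 times. The markers of the labels were checked: the 8 preset markers of Cxcl12-abundant stroma took 74704 and 76614 CPM (counts per gene scaled to the same total in every class and sample) in MSC. They were not particular to MSC. They took 68950 and 69628 CPM in Adipocyte progenitor, 58540 and 53279 in Pre-adipocyte and 55634.5 and 48648 in Osteoblast progenitor cells. In Pre-osteoblast/chondrocyte cells they took 5161 and 4201 CPM, and in Pro-osteoblast cells 2217 and 813 CPM. The 10 osteoblast markers took 40.3% and 43.9% of all counts in Pro-osteoblast cells, against 1.51% and 1.58% in MSC. The Pro-chondrocyte class, with 4 and 10 cells, had no count of the 5 chondrocyte markers in the table, and 24.5% and 22.7% of its counts were in osteoblast markers, so the chondrocyte part of its label had no marker behind it. With so few cells it was described and not tested.

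Mammalian ribosomal protein genes are transcribed at high and roughly matched rates, since the proteins are needed in nearly equal numbers, and most of their mRNAs start with a run of pyrimidines (the 5′ terminal oligopyrimidine tract) through which mTOR and the RNA-binding protein LARP1 control their translation. A few members have further roles: Rplp0, Rplp1 and Rplp2 form the stalk of the large subunit that recruits elongation factors, Rpsa is a small-subunit protein also known as a laminin receptor, and Rpl3 lies near the centre where peptide bonds form. Rps6 is the small-subunit protein phosphorylated by S6 kinases. Osteoblasts make and secrete much collagen and other matrix protein, which is why the translation machinery is of interest in bone-forming cells.

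Promoter stretches are shown for the 6 members with the largest called rises within the family in Pro-osteoblast cells and the 3 with the largest called falls, to set their sequences beside the values given later. Each runs from 60 bases before the RefSeq transcription start to 20 bases after it, on the GRCm38.p6 build, 5′ to 3′ on the gene's strand. Capitals mark a match to CCGGAAG, the core of an ETS-factor (GABP) site, or to CTTTCC, a pyrimidine run, either of them on either strand. Rps28, Rpl27a, Rplp0, Rpl38, Rpl41 and Rpl23 took a larger part of the family's counts in Pro-osteoblast cells than in MSC, and Rpl7l1, Rps27 and Rpl39l took a smaller part.
Rps28 (chr17:33824543-33824622, minus strand): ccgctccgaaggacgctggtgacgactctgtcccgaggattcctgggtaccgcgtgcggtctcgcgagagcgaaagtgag
Rpl27a (chr7:109519135-109519214, plus strand): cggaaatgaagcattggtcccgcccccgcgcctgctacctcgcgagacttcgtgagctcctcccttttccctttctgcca
Rplp0 (chr5:115559407-115559486, plus strand): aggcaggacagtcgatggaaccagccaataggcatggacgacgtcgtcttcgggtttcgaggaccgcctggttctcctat
Rpl38 (chr11:114668520-114668599, plus strand): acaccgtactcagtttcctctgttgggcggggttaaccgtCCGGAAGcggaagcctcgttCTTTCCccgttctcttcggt
Rpl41 (chr10:128549149-128549228, minus strand): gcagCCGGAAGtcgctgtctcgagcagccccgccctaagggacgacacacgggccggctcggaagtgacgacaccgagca
Rpl23 (chr11:97782420-97782499, minus strand): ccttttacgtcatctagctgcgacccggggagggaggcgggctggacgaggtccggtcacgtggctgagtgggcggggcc
Rpl7l1 (chr17:46782637-46782716, minus strand): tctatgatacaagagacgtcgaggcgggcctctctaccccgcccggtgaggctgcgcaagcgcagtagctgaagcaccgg
Rps27 (chr3:90213629-90213708, minus strand): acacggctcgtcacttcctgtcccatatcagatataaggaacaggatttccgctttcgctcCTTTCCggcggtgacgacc
Rpl39l (chr16:10170168-10170247, plus strand): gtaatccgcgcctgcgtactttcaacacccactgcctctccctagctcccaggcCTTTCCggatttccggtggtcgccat
Within these stretches CCGGAAG was found in Rpl38 and Rpl41, and CTTTCC in Rpl38, Rps27 and Rpl39l. Over the whole 300-base windows of the table, which held 66 of the 87 members, CCGGAAG or its reverse complement CTTCCGG was present in 26 members (39.4%), against 9.93% of all 27025 genes with a window. Within 25 bases on each side of the start, CTTTCC lay on the sense strand in 12 members (18.2%), against 2.92% of all genes; its reverse complement GGAAAG lay there in 2 members (3.03%) and 2.59% of all genes. Neither motif contains the other, though their ends can share letters. These shares describe letters and nothing about the factors.

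The share of a class's counts that fell in members was highest in Pre-osteoblast/chondrocyte cells and lowest in Pre-adipocyte and MSC cells. Members took 11% and 9.97% of counts in Pre-osteoblast/chondrocyte cells of Stroma1 and Stroma2, against 3.94% and 3.84% in MSC, a difference of 6.60 ± 0.665 percentage points (SD, n = 2 samples). The Pre-osteoblast/chondrocyte class was small, with 25 cells in Stroma1 and 66 in Stroma2. Pro-osteoblast cells had 7.05% and 5.98%, a difference from MSC of 2.63 ± 0.693 points. Osteoblast progenitor cells had 5.80% and 6.05%, a difference of 2.04 ± 0.241 points. Adipocyte progenitor cells had 4.54% and 4.66%, a difference of 0.709 ± 0.153 points. Pre-adipocyte cells had 3.81% and 3.63%, a difference of -0.169 ± 0.0641 points, so they were below MSC in both samples, but by little. In every other tested class both samples lay above both MSC samples. The order of the classes was the same in both samples apart from Osteoblast progenitor and Pro-osteoblast, which overlapped: Pro-osteoblast cells were above Osteoblast progenitor cells in Stroma1 and just below them in Stroma2. Counting error was small beside these differences, with exact Clopper-Pearson 95% intervals no wider than ±0.262 points in the tested classes; intervals cover counting error only. In Pro-chondrocyte cells the share was 5.77% (interval 5.10 to 6.50%) in Stroma1 and 8.23% (interval 7.74 to 8.75%) in Stroma2. Single cells gave the same picture: the median cell of the Pre-osteoblast/chondrocyte class had 9.87% and 9.65% of its counts in members, against 3.70% and 3.66% in MSC.

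A share depends on what else a cell transcribes, and in Pro-osteoblast cells a few bone matrix genes filled much of the total. With the 10 osteoblast markers left out below the line, an alternative chosen after seeing the data, members took 11.8% and 10.7% of the remaining counts in Pro-osteoblast cells, 12.5% and 11.3% in Pre-osteoblast/chondrocyte cells and 4.00% and 3.90% in MSC. The difference between Pro-osteoblast cells and MSC was then 7.29 ± 0.753 points in place of 2.63 ± 0.693 points. Depth and mitochondrial RNA also moved between classes, and their part in the shares was not tested. The median cell held 4422 and 4201 counts in Pro-osteoblast, against 1378 and 1160.0 in MSC. In Pre-osteoblast/chondrocyte cells of Stroma1 the share was 9.83% in the 13 cells with more counts and 13.7% in the 12 with fewer. In Stroma2 it was 10.1% in the 33 cells with more counts and 9.65% in the 33 with fewer. Mitochondrial genes took 7.74% and 6.37% of counts in Pre-osteoblast/chondrocyte cells and 7.23% and 6.90% in Osteoblast progenitor cells, against 4.32% and 4.31% in MSC. Without mitochondrial genes below the line, the Osteoblast progenitor share exceeded that of MSC by 2.31 ± 0.241 points and the Pre-osteoblast/chondrocyte share by 7.22 ± 0.835 points.

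**Figure D1:**
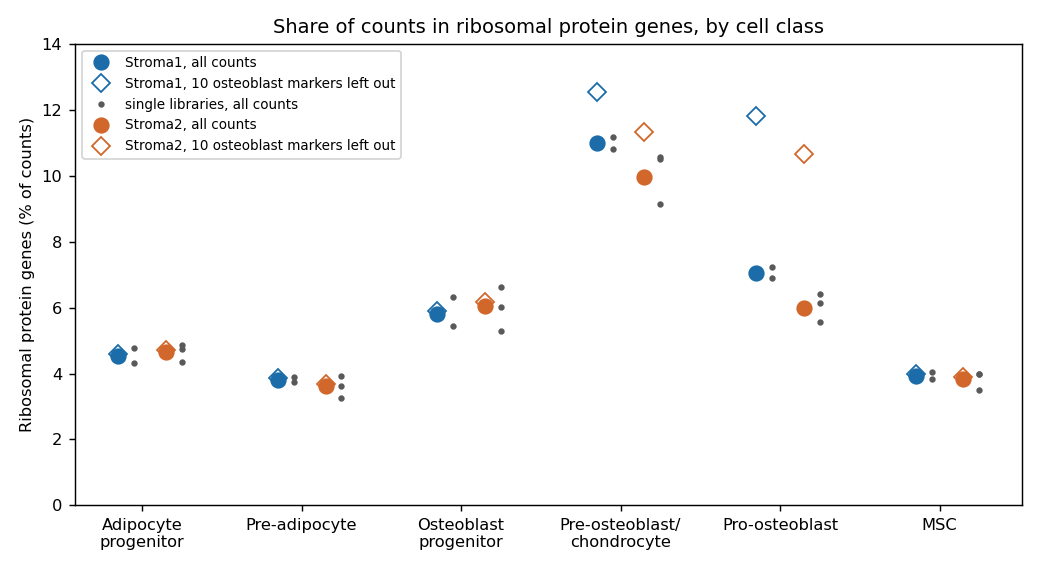
Percent of counts in the 87 ribosomal protein genes (y axis) for each tested class (x axis), with filled circles for each sample, small dots for its libraries and open diamonds for the share after the 10 osteoblast markers were left out below the line. Pre-osteoblast/chondrocyte cells are highest in both samples, and Pro-osteoblast cells come close to them once the osteoblast markers are left out.

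Gene by gene, nearly the whole family was higher in Pro-osteoblast cells than in MSC. Of the 82 members that passed the count filter, 79 were called higher (edgeR quasi-likelihood test on counts summed per sample and class, adjusted p under 0.05 over 6299 genes) and none lower, while 19.1% of all genes tested were called higher and 18.9% lower. The members that passed are not all members: Rpl10l, Rpl3l, Rps12, Rps19bp1 and Rps27rt did not pass, and a filter on counts favours genes that are high in some class. The median change of members was 1.69 on the log2 scale after TMM scaling, beside -0.002 for all genes. With raw totals in place of TMM, 64 were called higher and 1 lower, with a member median of 0.62, and the median of all genes moved to -1.19; every log2 change given for Pro-osteoblast cells is therefore relative to a scale that leaves the bulk of genes in place. With each barcode kept once, 79 were called higher. In none of the comparisons with MSC was a member lower at an unadjusted p under 0.05 in edgeR's test or called lower by DESeq2's Wald test. Changes below are log2 values after TMM scaling unless another scale is named, each with its standard error (SE). Very small p-values rest on a spread shared across genes and on sums from 2 samples.

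Rps28 had 449 and 374 CPM in Pro-osteoblast cells of Stroma1 and Stroma2, against 115 and 125 CPM in MSC. This small-subunit gene had the largest change in Pro-osteoblast cells, 2.80 (SE 0.21, adjusted p = 6.5e-27). Rpl27a had 2697 and 2664 CPM in Pro-osteoblast cells of Stroma1 and Stroma2, against 975 and 1008 CPM in MSC. The change of Rpl27a, a large-subunit gene, was 2.48 (SE 0.17, adjusted p = 4.5e-31). Rplp0 had 1426 and 1159 CPM in Pro-osteoblast cells of Stroma1 and Stroma2, against 474 and 468 CPM in MSC. Rplp0, the base of the stalk, changed by 2.48 (SE 0.17, adjusted p = 7.5e-30). In each of the 3 genes both Pro-osteoblast values lay above both MSC values. Rpl38 had 2265 and 1815 CPM in Pro-osteoblast cells of Stroma1 and Stroma2, against 758 and 744 CPM in MSC, and its change was 2.46 (SE 0.17, adjusted p = 1.4e-30). Rpl38 is known from mice in which its loss alters translation of Hox mRNAs and the pattern of the skeleton. Rpl41, Rpl23, Rpl4 and Rpl14 completed the 8 largest called changes, between 2.23 and 2.43.

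Among the smallest called changes in Pro-osteoblast cells were those of Rpl9, Rpl8, Rps15, Rpl3, Rpl23a, Rpl18 and Rpl36, between 1.09 and 1.27. Rpl3 had 470.0 and 354 CPM in Pro-osteoblast cells of Stroma1 and Stroma2, against 378 and 342 CPM in MSC. On the CPM scale its samples were close to MSC, and after TMM scaling the change was 1.23 (SE 0.18, adjusted p = 2.0e-09). Rps6 had 641 and 535 CPM in Pro-osteoblast cells of Stroma1 and Stroma2, against 370.2 and 375 CPM in MSC, with a change of 1.70 (SE 0.18, adjusted p = 2.2e-16). The stalk genes Rplp1 and Rplp2 changed by 2.19 (SE 0.17, adjusted p = 1.9e-25) and 1.58 (SE 0.19, adjusted p = 3.6e-13), and Rpsa by 1.97 (SE 0.17, adjusted p = 3.0e-22). Rpl39l, Rpl7l1 and Rps27 did not pass the test. Rps27 had 53.4 and 20.7 CPM in Pro-osteoblast cells of Stroma1 and Stroma2, against 41.1 and 36.1 CPM in MSC, and its samples overlapped. CPM values of different genes are not corrected for gene length, so they are compared here only within a gene.

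Pre-osteoblast/chondrocyte cells were higher than MSC for nearly the whole family too, with and without TMM scaling. Of 82 members, 77 were called higher than in MSC and none lower (6.54% of all genes called higher and 11.8% lower), with a median of 1.30 beside -0.36 for all genes. With raw totals the count was 78 and the median 1.41. Rpl23 had 4219.6 and 4001 CPM in Pre-osteoblast/chondrocyte cells of Stroma1 and Stroma2, against 1005 and 919 CPM in MSC. Rpl23, a large-subunit protein that also binds Mdm2 when free of the ribosome, had the largest change, 1.99 (SE 0.17, adjusted p = 2.0e-21). Rplp1 had 2101 and 1829 CPM in Pre-osteoblast/chondrocyte cells of Stroma1 and Stroma2, against 506 and 477 CPM in MSC, a change of 1.89 (SE 0.18, adjusted p = 8.6e-18). Both samples lay far above both MSC samples for both genes. Rps28, Rplp0, Rpl39, Rpl10a, Rps18 and Rps6 followed, between 1.65 and 1.82. The smallest called changes were those of Rps29, Rpl14, Rps10, Rpl36al, Rpl30, Rpl19, Rpl24 and Rps21, from 0.81 to 1.0. Rplp2 changed by 1.18 (SE 0.23, adjusted p = 8.8e-06), Rpsa by 1.33 (SE 0.18, adjusted p = 7.0e-10) and Rpl3 by 1.02 (SE 0.21, adjusted p = 4.5e-05). Rpl10, Rpl35, Rpl39l, Rpl7l1 and Rps27 did not pass the test.

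In Osteoblast progenitor cells the family was higher than in MSC by less. Of 82 members, 47 were called higher and none lower (3.32% of all genes called higher and 3.56% lower), with a median of 0.57 beside -0.06 for all genes, and 79 of 82 changes were positive in both samples taken alone. The count depended on both libraries of Stroma1: without library 1.1 it was 5 and without library 1.2 it was 12, while the medians were 0.60 and 0.57. Rps2 had 319 and 334 CPM in Osteoblast progenitor cells of Stroma1 and Stroma2, against 184 and 156 CPM in MSC. This small-subunit gene had the largest called change, 0.92 (SE 0.21, adjusted p = 8.2e-04). Rpl39 had 943 and 1064 CPM in Osteoblast progenitor cells of Stroma1 and Stroma2, against 572 and 490.2 CPM in MSC, a change of 0.89 (SE 0.17, adjusted p = 3.8e-05). Rpl39 codes for a very small protein of the peptide exit tunnel. Rplp0, Rps3a1, Rps18, Rpl15, Rplp1 and Rps6 followed, from 0.76 to 0.85. Rps29, Rpl34, Rps10, Rpl26, Rpl12, Rps15a and Rpl30 were among the members with the smallest called changes, from 0.52 to 0.54. Rplp2 changed by 0.75 (SE 0.19, adjusted p = 0.00349) and Rpsa by 0.67 (SE 0.17, adjusted p = 0.00317); Rpl3, at 0.52 (SE 0.18, adjusted p = 0.0715), did not pass. When cells took the class of most of their 15 nearest neighbours in a space built without the members, 23 members were called, and 57.6% and 48.8% of Osteoblast progenitor cells kept their class. The deposited classes may rest in part on the members.

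**Figure D2:**
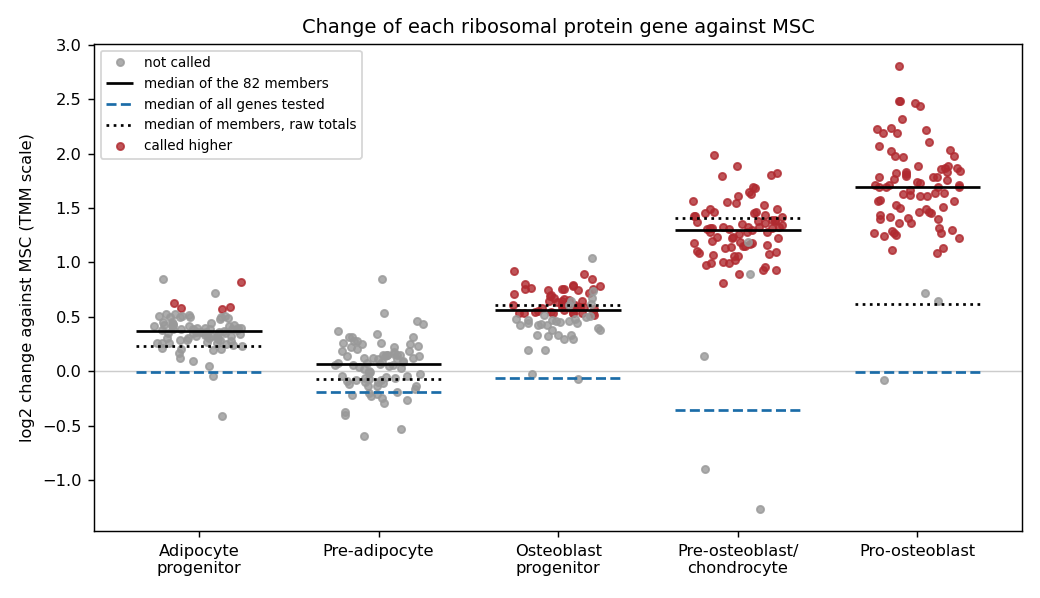
Each point is the log2 change of 1 of the 82 tested ribosomal protein genes against MSC after TMM scaling (y axis), by class (x axis), red where it was called higher and grey where it was not. Solid lines give the member median, dashed lines the median of all genes tested and dotted lines the member median with raw totals. Most points stand above the median of all genes in every class, and they are highest in Pro-osteoblast cells, where the dotted line is far below the solid one.

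Comparisons between neighbouring classes on the bone side were added after the data had been seen. Between Pre-osteoblast/chondrocyte and Osteoblast progenitor cells, 55 of 82 members were higher in Pre-osteoblast/chondrocyte cells and none lower (2.95% of all genes called higher and 6.38% lower), with a median of 0.73; without library 1.1 the count was 16 and without library 1.2 it was 33. At an unadjusted p under 0.05, 1 member was lower in edgeR's test, and DESeq2's Wald test called none lower. Between Pro-osteoblast and Pre-osteoblast/chondrocyte cells the direction depended on the scale. After TMM, 21 members were higher in Pro-osteoblast cells and none lower (12.7% of all genes called higher and 6.51% lower), with a median of 0.40 for members and 0.33 for all genes. Without library 1.1 the count was 12, without library 1.2 it was 10, and DESeq2's Wald test called 9. With raw totals, none was higher and 62 were lower in Pro-osteoblast cells, with a median of -0.77 for members and -0.93 for all genes. Rpl27a, at 2697 and 2664 CPM in Pro-osteoblast and 2481 and 2314 CPM in Pre-osteoblast/chondrocyte cells, and Rps6, at 641 and 535 CPM in Pro-osteoblast and 1376 and 1169 CPM in Pre-osteoblast/chondrocyte cells, show the range. Rpl27a was higher in Pro-osteoblast cells on the CPM scale and after TMM, where it differed by 1.32 (SE 0.17, adjusted p = 1.0e-10). Rps6 was lower in Pro-osteoblast cells on the CPM scale, and after TMM it differed by 0.05 (SE 0.19, adjusted p = 0.903).

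In the classes on the fat side the member medians against MSC were smaller than in the tested classes on the bone side. In Adipocyte progenitor cells 5 of 82 members were called higher than in MSC and none lower (3.18% of all genes called higher and 0.143% lower), with a median of 0.37 beside -0.002 for all genes; 77 of 82 changes were positive in both samples alone. The called members were Rps28, Rpl41, Rplp0, Rpl39 and Rps20, with changes from 0.57 to 0.82. Rps28 had 200.2 and 185 CPM in Adipocyte progenitor cells of Stroma1 and Stroma2, against 115 and 125 CPM in MSC. Rplp0 had 569 and 713 CPM in Adipocyte progenitor cells of Stroma1 and Stroma2, against 474 and 468 CPM in MSC. Both genes were higher than in MSC in both samples. Between 0 and 3 members were called when 1 of the libraries was left out (0 without library 1.1, 1.2 or 2.2), and none with raw totals. The other fixed names were not called, with changes from 0.05 to 0.52. In Pre-adipocyte cells edgeR called no member in either direction, 3 were higher at an unadjusted p under 0.05, and DESeq2's Wald test called 3 higher; 7.13% of all genes were called higher and 3.48% lower. The member median in Pre-adipocyte cells was 0.07 beside -0.19 for all genes, and -0.07 with raw totals. Rplp0 had 554 and 474 CPM in Pre-adipocyte cells of Stroma1 and Stroma2, against 474 and 468 CPM in MSC. Rpl3 had 441 and 349 CPM in Pre-adipocyte cells of Stroma1 and Stroma2, against 378 and 342 CPM in MSC. Rps28 had 72.2 and 107 CPM in Pre-adipocyte cells of Stroma1 and Stroma2, against 115 and 125 CPM in MSC. Rplp0 and Rpl3 were above and Rps28 below the MSC of the same sample in both samples, and none of them was called. The 9 fixed names had changes from -0.40 to 0.54 in Pre-adipocyte cells.

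To see which members moved against the rest of the family, counts were also scaled to the member total of each class and sample. On this scale the other genes of the table fall wherever the family rises (86.7% of all genes tested were called lower in Pro-osteoblast cells and 73.2% in Pre-osteoblast/chondrocyte cells, and 3.23% and 1.7% higher), which makes the Benjamini-Hochberg threshold lenient; Bonferroni adjustment over all genes was therefore added after seeing the data. A rise of some members also lowers the others on this scale. In Pro-osteoblast cells 12 of 82 members were called higher and 23 lower, with 23 called in all without library 1.2, and 5 held under Bonferroni: Rps28, Rpl27a, Rplp0 and Rpl38 higher and Rpl7l1 lower. Rps28 took 0.636% and 0.625% of member counts in Pro-osteoblast cells, against 0.293% and 0.325% in MSC, a change of 1.01 (SE 0.20, adjusted p = 7.5e-06) and a Bonferroni p of 0.0208. Rpl27a took 3.82% and 4.46% of member counts in Pro-osteoblast cells, against 2.48% and 2.62% in MSC, a change of 0.71 (SE 0.12, adjusted p = 8.2e-07) and a Bonferroni p of 0.00182. Rplp0 took 2.02% and 1.94% of member counts in Pro-osteoblast cells, against 1.21% and 1.22% in MSC, a change of 0.70 (SE 0.13, adjusted p = 3.4e-06). Rpl38 took 3.21% and 3.04% of member counts in Pro-osteoblast cells, against 1.93% and 1.94% in MSC, a change of 0.69 (SE 0.12, adjusted p = 1.8e-06). The samples of both classes stood apart for all 4 genes, and their promoter stretches are those shown above.

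Rpl41 and Rpl23 also rose within the family in Pro-osteoblast cells, by 0.65 (SE 0.16, adjusted p = 2.5e-04) and 0.54 (SE 0.12, adjusted p = 8.2e-05), and did not hold under Bonferroni. Rpl7l1, a paralog of Rpl7 known for a part in making the large subunit, fell: it took 0.0303% and 0.0496% of member counts in Pro-osteoblast cells, against 0.139% and 0.185% in MSC, a change of -1.89 (SE 0.37, adjusted p = 8.7e-06), on 4 and 43 counts. On the TMM scale its change in the same cells was -0.08 (SE 0.40, adjusted p = 0.911); on the CPM scale it had 21.4 and 29.6 CPM in Pro-osteoblast cells, against 54.9 and 71.1 CPM in MSC. Rps27, Rpl39l, Rpl9 and Rpl8 were the next lowest, from -1.15 to -0.67; Rps27 and Rpl9 gave few counts, and Rpl9 was called under 1 of 10 other settings. Of the fixed names, Rplp1 rose by 0.41 (SE 0.13, adjusted p = 0.00346), and Rpl3, Rps27l and Rpl22l1 fell by 0.56, 0.49 and 0.43 on the log2 scale, with adjusted p of 0.00149, 0.0187 and 0.0298 in edgeR's test. Under the same other settings Rpl3 was called in 10 of 10, Rps27l in 8 of 10 and Rpl22l1 in 5 of 10, where its adjusted p in edgeR's test ran up to 0.1246. Rplp2, Rpsa, Rps6 and Rpl36al were not called, with changes between -0.22 and 0.19.

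**Figure D3:**
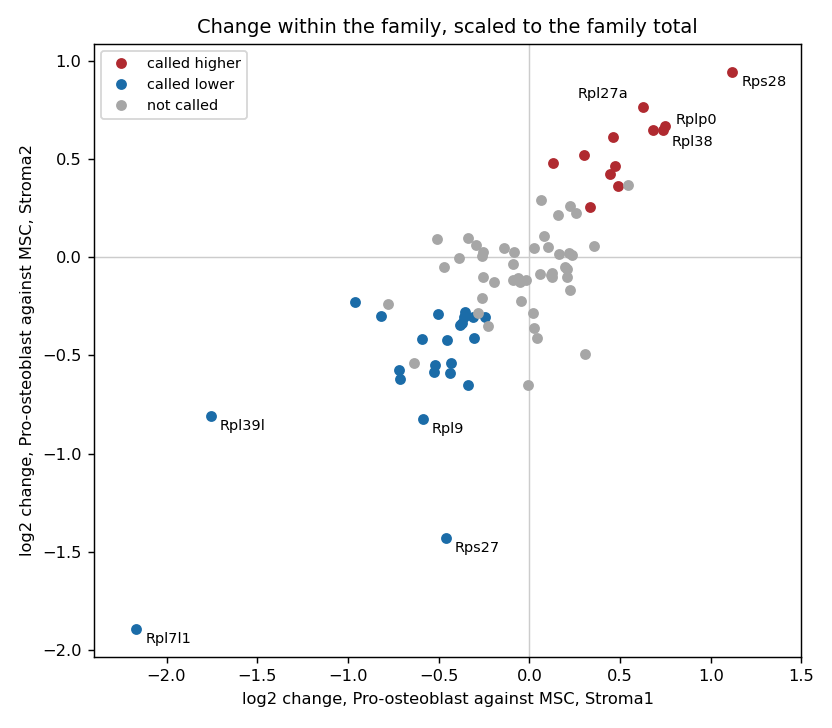
Log2 change of each of the 82 tested members in Pro-osteoblast cells against MSC after scaling to the member total, in Stroma1 (x axis) and Stroma2 (y axis), red where called higher, blue where called lower and grey where not called. Rps28 lies highest in both samples, Rpl27a, Rplp0 and Rpl38 next to it, and Rpl7l1 lowest in both.

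In Pre-osteoblast/chondrocyte cells 5 members were higher within the family and 7 lower than in MSC. Rpl23 took 3.83% and 4.01% of member counts in Pre-osteoblast/chondrocyte cells, against 2.55% and 2.39% in MSC, a change of 0.67 (SE 0.13, adjusted p = 2.5e-05). It alone held in edgeR's test under Bonferroni, with a p of 0.0276. Rplp1, Rpl39, Rplp0 and Rpl10a were the other called rises, from 0.38 to 0.57. The lowest were Rpl7l1 and Rpl39l, at -2.57 (SE 0.59, adjusted p = 2.1e-04) and -2.20 (SE 0.57, adjusted p = 7.5e-04), on 1 to 4 counts in a sample, and Rps29, Rpl14 and Rps10, from -0.50 to -0.40. The fixed names other than Rplp0 and Rplp1 were not called in Pre-osteoblast/chondrocyte cells, with changes from -0.38 to 0.33. Without library 1.2 the number called was 5. Between Pro-osteoblast and Pre-osteoblast/chondrocyte cells, where the medians of members and of all genes were -0.07 and -0.16, Rpl14, Rpl27a, Rpl38, Rps29 and Rps25 were higher in Pro-osteoblast cells and Rps18 and Rpl13a lower. Rpl27a took 3.82% and 4.46% of member counts in Pro-osteoblast cells, against 2.25% and 2.32% in Pre-osteoblast/chondrocyte cells, a difference of 0.87 (SE 0.14, adjusted p = 1.7e-06). In that comparison 6.09% of all genes were called higher and 10.2% lower. Rpl23, at 3.52% and 3.65% of member counts in Pro-osteoblast and 3.83% and 4.01% in Pre-osteoblast/chondrocyte cells, was not called, at -0.13 (SE 0.13, adjusted p = 0.597). In Adipocyte progenitor, Pre-adipocyte and Osteoblast progenitor cells no member was called within the family by edgeR, with 1, 5 and 2 members at an unadjusted p under 0.05. In the same classes 2.28%, 6.74% and 1.34% of all genes were called higher on this scale and 5.99%, 5.31% and 28.2% lower.

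Both subunits moved together. On the TMM scale in Pro-osteoblast cells 30 of 31 tested small-subunit members and 49 of 51 large-subunit members were called higher, with medians of 1.76 and 1.67. The ratio of small-subunit to large-subunit counts was 0.745 and 0.710 in Pro-osteoblast cells, 0.768 and 0.732 in Pre-osteoblast/chondrocyte cells and 0.805 and 0.830 in Pre-adipocyte cells, against 0.777 and 0.785 in MSC. Both Pro-osteoblast ratios were below both MSC ratios and both Pre-adipocyte ratios above them.

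The paralogs among members did not move as 1 group on the TMM scale. Rpl22l1, which can replace Rpl22 in the ribosome, rose in Pro-osteoblast cells by 1.37 (SE 0.20, adjusted p = 2.6e-09) on the TMM scale and in Pre-osteoblast/chondrocyte cells by 1.42 (SE 0.24, adjusted p = 3.5e-07). Rps27l, a p53 target, rose by 1.31 (SE 0.21, adjusted p = 1.5e-08) and 1.10 (SE 0.25, adjusted p = 2.4e-04) in the same classes, and Rpl36al by 1.71 (SE 0.20, adjusted p = 1.8e-14) and 0.93 (SE 0.24, adjusted p = 0.00168). With raw totals in Pro-osteoblast cells, edgeR's test called Rpl36al, at 0.63 (adjusted p = 0.00135). It did not call Rpl22l1, at 0.27 (adjusted p = 0.188), or Rps27l, at 0.21 (adjusted p = 0.324). Within the family Rpl22l1 and Rps27l fell in these cells, as given above. Rpl39l had 37.4 and 47.6 CPM in Pro-osteoblast cells of Stroma1 and Stroma2, against 71.3 and 53.6 CPM in MSC. Rpl39l, a paralog of Rpl39 known from germ cells, was not called on the TMM scale in Pro-osteoblast cells, at 0.72 (SE 0.36, adjusted p = 0.103), on 7 and 69 counts. Within the family it fell by 1.08 (adjusted p = 0.00301 in edgeR's test), while Rpl39 itself rose by 0.42 (SE 0.13, adjusted p = 0.00280). In the other classes Rpl22l1, Rps27l and Rpl36al were not called: in Osteoblast progenitor cells their changes were 0.33, 0.20 and 0.30, in Adipocyte progenitor cells 0.48, 0.05 and 0.19, and in Pre-adipocyte cells 0.54, -0.40 and -0.21.

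The authors also placed cells on pseudotime paths to the osteoblast, chondrocyte and adipocyte fates, as ranks from 0 to 1, which were cut into 5 bins of equal width in rank. On the osteoblast path members took 3.45, 3.79, 4.36, 5.51 and 7.58% of counts from the first bin to the last in Stroma1 and 3.48, 3.62, 4.14, 5.76 and 6.15% in Stroma2. On the chondrocyte path they took 3.42, 3.83, 4.19, 4.82 and 7.5% in Stroma1 and 3.5, 3.57, 4.04, 4.68 and 7.47% in Stroma2. On both paths the share rose at every step in both samples, and most of the rise on the chondrocyte path came in the last bin. On the adipocyte path they took 3.45, 3.82, 4.33, 4.80 and 3.95% in Stroma1 and 3.48, 3.62, 4.26, 4.68 and 4.05% in Stroma2, rising to the fourth bin and then falling in both samples. The last bin exceeded the first by 3.40 ± 1.03 points on the osteoblast path, 4.03 ± 0.0805 on the chondrocyte path and 0.538 ± 0.0504 on the adipocyte path (SD, n = 2). With the osteoblast markers left out below the line, the difference was 7.87 ± 0.982 points on the osteoblast path and 4.4 ± 0.0144 on the chondrocyte path. The order of these paths thus turned in the mean and in Stroma2, where all counts gave 2.67 and 3.97 points. In Stroma1 all counts already gave 4.13 points on the osteoblast and 4.09 on the chondrocyte path. The paths share their early cells: the first bins held 385, 359 and 379 cells on the osteoblast, chondrocyte and adipocyte paths, all of them MSC, and 359 to 379 of them were in both first bins of a pair of paths. Of the 1794 cells on the chondrocyte path, 1564 were also on the osteoblast path, and 38 cells were in both last bins. Osteoblast progenitor cells made up 68.8% and 67.2% of the last chondrocyte bin in Stroma1 and Stroma2, and Pre-osteoblast/chondrocyte cells 22.3% and 25.5%. Pro-chondrocyte cells made up 3.57% and 4.05% of that bin. MSC cells alone already differed along the osteoblast path: members took 3.45% and 3.48% of MSC counts in the first bin of Stroma1 and Stroma2, 3.79% and 3.60% in the second and 4.20% and 4.08% in the third. The mitochondrial share rose over the same bins, to 6.82% and 6.86% in the fourth bin of the osteoblast path, and was 4.6% and 3.89% in the last, where the member share was highest, against 3.85% and 3.93% in the first; its part in the member share was not tested. The pseudotimes were made from the same counts and may rest in part on the members.

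**Figure D4:**
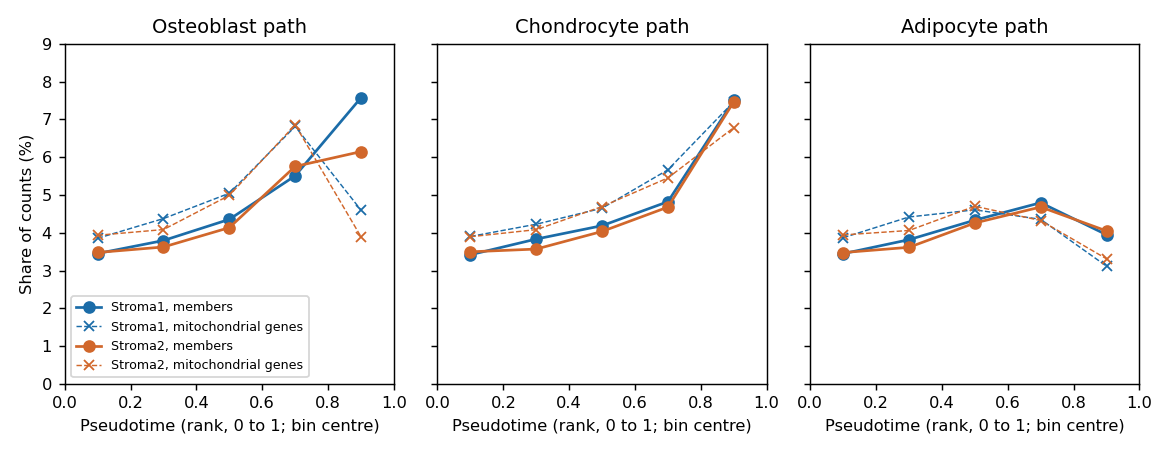
Percent of counts (y axis) in ribosomal protein genes (solid lines, circles) and in mitochondrial genes (dashed lines, crosses) in 5 bins of pseudotime (x axis, rank) on each path, for each sample. The member share climbs to the last bin on the osteoblast and chondrocyte paths and turns down in the last bin of the adipocyte path, while the mitochondrial share falls in the last bin of both the osteoblast and the adipocyte path.

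Tested as a linear trend over the whole path, 78 of 82 members rose on the osteoblast path, 73 on the chondrocyte path and 41 on the adipocyte path, and none fell, while 11.3%, 7.82% and 8.85% of all genes tested were called higher and 5.86%, 6.39% and 2.4% lower. The paths share their early cells, so these counts are not independent. The spread behind the p-values of these trends also holds the departure of the bins from a straight line. With raw totals the counts were 27, 71 and 4, and with each barcode once 78, 73 and 38; without library 1.2 the adipocyte path count was 20 and without library 1.1 it was 22. Median slopes were 2.32, 1.42 and 0.71 on the log2 scale, beside 0.09, 0.003 and 0.04 for all genes. Rps28 had the steepest slope on each path. On the osteoblast path it had 71.9, 119, 157, 152 and 439 CPM from the first bin to the last in Stroma1 and 82.6, 111, 154, 192 and 378 CPM in Stroma2, a slope of 4.02 (SE 0.56, adjusted p = 4.5e-04). The last bins were above the first in both samples. On the chondrocyte path its slope was 2.22 (SE 0.36, adjusted p = 8.3e-05 in edgeR's test), and on the adipocyte path 1.49 (SE 0.37, adjusted p = 0.00759). On the adipocyte path Rps28 had 67.9 and 84.2 CPM in the first bin of Stroma1 and Stroma2. It had 200.2 and 203.1 CPM in the fourth bin and 120.3 and 141.1 CPM in the last, so its course was not a steady rise.

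On the osteoblast path Rplp0, Rps26, Rpl39, Rpl38, Rpl27a, Rpl41 and Rplp1 came next, with slopes from 3.01 to 3.23, and Rps15, Rps27l, Rpl7a, Rpl8, Rpl24, Rpl18, Rpl13 and Rpl23a had the smallest called slopes, from 1.47 to 1.81. Rplp0 had 417, 500.1, 487, 793 and 1499.8 CPM over the bins in Stroma1 and 409.6, 437, 535, 789.7 and 1189 CPM in Stroma2. On the chondrocyte path Rpl39, Rps2, Rplp1, Rpl6l, Rps18, Rps26 and Rpl13a followed Rps28, between 1.89 and 2.09. Rpl6l is a member by name only, since the GENCODE M21 annotation types it as a processed pseudogene. Rpl36al, Rpl7a, Rps15, Rps29, Rps24, Rpl28, Rpl30 and Rpl34 had the smallest called slopes, from 0.89 to 1.10. On the adipocyte path Rps2, Rpl3, Rps3a1, Rps9, Rplp0, Rps10 and Rps20 followed, between 1.04 and 1.22, and Rps4x, Rpl37, Rps25, Rps21, Rps24, Rps23 and Rpl10a were among the smallest, from 0.68 to 0.73. Among the fixed names, Rps27l was not called on the chondrocyte path, at 0.75 (SE 0.33, adjusted p = 0.141), and on the adipocyte path Rplp2, Rps27l and Rpl36al were not called, with slopes of 0.50, -0.04 and 0.21. Scaled to the member total, Rpl7l1 fell on all 3 paths, by 2.65 on the osteoblast, 1.98 on the chondrocyte and 1.52 on the adipocyte path (adjusted p = 0.00618, 0.00834 and 0.0375 in edgeR's test, of which none held under Bonferroni). On the osteoblast path Rps28 also rose within the family, by 1.46 (SE 0.44, adjusted p = 0.0144), and Rps27 and Rpl39l fell by 1.68 and 1.44. In these fits 69.1%, 55% and 23.1% of all genes were called lower and 1.7%, 1.29% and 4.52% higher.

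Other genes of translation were taken from lists chosen by name. The list of elongation factors, which bring tRNA to the ribosome and move it along the mRNA, also held Eef2k, Tpt1, Naca and Btf3. These do not have that role themselves. Of the 10 tested genes on the list, 9 were higher in Pro-osteoblast cells than in MSC and 6 in Pre-osteoblast/chondrocyte cells. None was lower, while 19.1% and 6.54% of all genes were called higher in these classes. Eef1a1 rose by 2.24 (SE 0.17, adjusted p = 3.1e-26), Eef1b2 by 2.87 (SE 0.18, adjusted p = 1.1e-33) and Eef2 by 1.28 (SE 0.18, adjusted p = 2.1e-10) in Pro-osteoblast cells. Of the initiation factors 14 of 35 were higher in Pro-osteoblast cells and 3 of 35 in Pre-osteoblast/chondrocyte cells. The former share was above that of all genes called higher, and the latter was near it. Eif3h was called in both classes by edgeR's test, at 1.58 (SE 0.21, adjusted p = 4.1e-11) and 0.95 (SE 0.27, adjusted p = 0.00476). Of ribosome biogenesis genes 6 of 27 were higher in Pro-osteoblast cells, near the 19.1% of all genes. In Pre-osteoblast/chondrocyte cells 1 of 27 was higher, below the 6.54% of all genes. Of mitochondrial ribosomal proteins, which serve the separate ribosome of mitochondria, 11 of 48 were higher in Pro-osteoblast cells and 1.0 lower. The share called higher was near the 19.1% of all genes, and 18.9% of all genes were called lower. Medians were 0.49 for the list and -0.002 for all genes.

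In Pre-adipocyte cells, where no member was called, 7 of 27 ribosome biogenesis genes were higher than in MSC (7.13% of all genes called higher). Nop58 and Nop56, core proteins of the small nucleolar RNA particles that guide rRNA methylation, rose by 2.07 (SE 0.33, adjusted p = 1.4e-07) and 1.61 (SE 0.39, adjusted p = 0.00117), and Npm1 by 1.11 (SE 0.23, adjusted p = 8.6e-05). Myc, a transcription factor that drives genes of ribosome making, rose by 4.33 (SE 0.23, adjusted p = 1.7e-42). Of the 16 tested regulators on the mTOR and Myc list, 3.0 rose and 1.0 fell, and of the integrated stress response list 5 of 10 rose and 1.0 fell (3.48% of all genes called lower). Atf3, a stress-induced transcription factor, rose by 5.17 (SE 0.36, adjusted p = 1.3e-29) and Ppp1r15a by 3.76 (SE 0.22, adjusted p = 9.5e-37). White-cell markers summed to 2030.2 and 372 CPM in Pre-adipocyte cells, against 45.3 and 51.7 CPM in MSC, and their part in these values was not tested. The part of the digestion, which all classes shared, was not tested either. Of ribosomal proteins outside the name rule, Rack1, a scaffold protein of the small subunit, rose by 1.87 (SE 0.17, adjusted p = 9.2e-20) in Pro-osteoblast cells and 1.66 (SE 0.19, adjusted p = 3.9e-14) in Pre-osteoblast/chondrocyte cells. Rack1 was also the gene outside the family whose CPM followed the member total most closely over the 12 sums of class and sample (Pearson r = 0.978, among 510 genes), followed by Eef1g (0.966), Gm9493 (0.966), Fap (0.960) and Shfm1 (0.953); the sums share libraries, and r is a description. Rack1 had 2282 and 1637 CPM in Pre-osteoblast/chondrocyte cells, against 638 and 494 CPM in MSC.

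Ribosomal protein genes have many near-identical processed copies in mammalian genomes, and a read that matches several places can be dropped or shared out in counting. What part this had in the counts of each member was not tested, but its values are given here. Rps12 (GRCm38 chr10:23785183-23787275) had no count in any passing cell, nor in any other of the 15028 barcodes. With a floor of 3 counts this allows at most 0.561 CPM over both samples in passing cells. That limit holds only if reads of Rps12 can reach its column, which was not tested. The column Rps12-ps3, a pseudogene by name that GENCODE M21 types as protein-coding, held 1056 counts. Rps12-ps3 rose in Pro-osteoblast cells by 2.06 (SE 0.22, adjusted p = 3.9e-16 in edgeR's test). A stretch of 50 bases within the last 400 bases of a coding transcript was called unique when no transcript of another gene in GENCODE M21 held it. Of the 86 members with such a transcript, which leaves out Rpl6l, 39 had fewer than 50% unique stretches and 47 had 50% or more. The members below 50% gave a median of 2233 counts (0 to 6575) in passing cells and the others a median of 4045 (1 to 8921). Rpl35, with 227 counts, had 7.98% unique stretches, and Rpl27, with 263, had 30.2%. Rpl36a had none and still gave 2701 counts. Rpl27a (GRCm38 chr7:109519147-109522367) and Rpl39l had only unique stretches, Rps28 (GRCm38 chr17:33819027-33824562) had 76.8%, Rpl7l1 94.4% and Rps27 49.2%. Members named above with under 25% unique stretches include Rps6 (12.0%), Rpl3 (16.4%), Rpl10a (20.3%), Rps2 (21.6%) and Rps18 (24.2%). The values of all 39 members below 50% are uncertain in this respect, since the handling of reads with several matches is not given in the sources used here. Rpl10l and Rpl3l, paralogs known from testis and from muscle, had 1 and 2 counts, and all their stretches were unique.

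**Figure D5:**
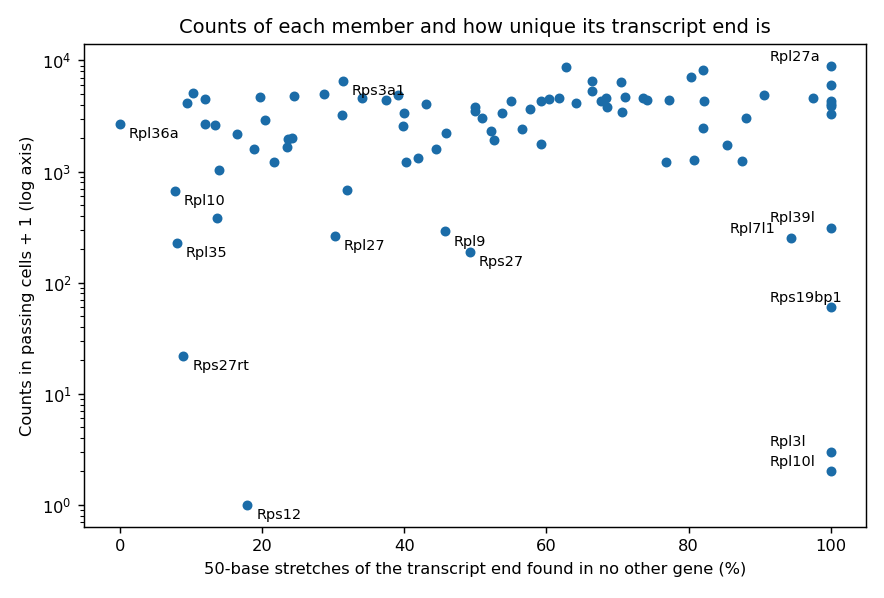
Counts of each member in passing cells plus 1 (y axis, log scale) against the percent of 50-base stretches at its transcript end that are found in no other gene (x axis). Rps12, Rps27rt, Rpl35, Rpl27, Rpl9 and Rps27 have few counts and less than 50% unique stretches, while Rpl3l, Rpl10l, Rps19bp1, Rpl7l1 and Rpl39l have few counts with nearly all stretches unique.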

How the data were processed

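Single-cell RNA was counted per gene in inDrops libraries, and the deposited table holds counts per cell barcode and gene with the authors' filter label, class, pseudotimes (a fraction from 0 to 1, evenly spaced as ranks), mitochondrial fraction and a potential score, per the file headers; the score was not used. Bowtie 1.1.1 and the GRCm38 build are named by the submitters' processing notes, while the sources used here do not give the counting tool, the annotation, the strand setting or the handling of molecular tags, and values are called counts. No other sample column was left unused (0).

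Counts were summed per sample and class (6 classes with at least 15 cells in each sample, 55218 to 1450797 counts per sum) and per sample and pseudotime bin, and tested with edgeR 4.0.16 in R 4.3.3: quasi-likelihood test, TMM scaling, filterByExpr with a minimum count of 10, class or bin centre with sample as a block, Benjamini-Hochberg adjustment over all genes and a threshold of 0.05. Class against class within a sample is a paired design, since both sums come from the same sample. A second fit took the member total as library size. The standard error is the log2 change divided by the square root of F. DESeq2 1.42.0 gave an alternative. Cells with no pass label were left out of all tests, and doublets were not called beyond the authors' filter. The test scripts were tested on simulated data.

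Named in each comparison were the 8 highest and 8 lowest called members of the same sign in both samples (5 and 5 within the family) and 9 fixed names. A few members that this rule names are not reported here by name. The members, the lists and these rules were chosen with earlier results of these data known. The comparisons of neighbouring classes, the Bonferroni adjustment and the shares without osteoblast markers were chosen after seeing the data. The members called unique or not were matched to GENCODE M21 on GRCm38, and promoters to RefSeq on GRCm38.p6.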

Additional observations from a re-analysis of the deposited data

Results flagged for a closer look

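Members took 18.4% of counts in the 585 Stroma1 barcodes and 19.0% in the 1675 Stroma2 barcodes that did not pass the authors' filter, against 4.90% and 5.22% in passing cells, and no comparison above used these barcodes. Both values are above those of every class that passed. Barcodes with no filter label had 2.38% and 4.24%, with 79.5% and 64.2% of their counts in mitochondrial genes. What the barcodes that did not pass are was not tested.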

How the results depend on the processing

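With raw totals in place of TMM, some directions turned. Between Pro-osteoblast and Pre-osteoblast/chondrocyte cells the member median was -0.77 in place of 0.40, 4 of 82 changes were positive, and 8 of the 21 members called higher after TMM were called lower. In Pro-osteoblast cells against MSC, Rpl9 was at -0.063. The member median in Pre-adipocyte cells, where no member was called, was -0.07 in place of 0.07. Sign changes of other members and medians that were not called were not counted. For single members and medians, 337 values under the alternatives kept their direction and lost the call, and 16 gained it. Another 98 values, all of them medians, moved beyond the spread, and 2 values turned direction. The remaining 4005 stayed on their side of the threshold or within the spread. Among these are 280 values without Stroma1 and 280 without Stroma2, which carry no test and so could not lose or gain a call. No cause was tested for any of the values below. In Adipocyte progenitor cells, where 5 members were called higher, there were 0 with no count filter, with raw totals or with classes by neighbours, 3 with no replicate block, 16 with DESeq2's size factors, 11 when scaled on genes that are neither members nor mitochondrial, 9 with DESeq2's Wald test, 8 in cells of at least 1000 counts, and 0 to 3 with 1 library left out. The block is the sample, which pairs the classes, and leaving it out moved no other count by over 1.5 times. In Pre-adipocyte cells DESeq2's size factors gave 6 and its Wald test 3, in place of 0. In Osteoblast progenitor cells there were 30 with no filter, 23 with classes by neighbours, and 5 to 56 with 1 library left out, in place of 47. With raw totals 1 member was lower in Pro-osteoblast cells, 0 were higher and 62 lower between Pro-osteoblast and Pre-osteoblast/chondrocyte cells, and 27 and 4 rose on the osteoblast and adipocyte paths. DESeq2's Wald test gave 9 higher between Pro-osteoblast and Pre-osteoblast/chondrocyte cells.

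With 1 library left out, 0 to 1 members were lower in Pre-osteoblast/chondrocyte cells; 16 to 55 were higher and 0 to 1 lower between them and Osteoblast progenitor cells; 10 to 23 were higher between Pro-osteoblast and Pre-osteoblast/chondrocyte cells; and 20 to 32 rose on the adipocyte path. Within the family, the numbers called with 1 library left out were 0 to 1 in Osteoblast progenitor, 5 to 11 in Pre-osteoblast/chondrocyte and 23 to 30 in Pro-osteoblast cells, 2 to 5 and 4 to 7 in the 2 neighbouring comparisons, and 2 to 4, 1 to 2 and 0 to 1 on the osteoblast, chondrocyte and adipocyte paths. Bonferroni adjustment left 1 in Pre-osteoblast/chondrocyte cells, 5 in Pro-osteoblast cells, 0 and 2 in the neighbouring comparisons and 0 on each path. No count filter left 7 in Pre-osteoblast/chondrocyte cells, 2 between them and Osteoblast progenitor cells, 1 on the osteoblast path and 0 on the adipocyte path. Cells of at least 1000 counts gave 2, 2 and 0 on the osteoblast, chondrocyte and adipocyte paths.

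Of the share differences, the mean of single cells gave -0.0867 points in Pre-adipocyte cells, 3.87 on the chondrocyte path and 0.615 on the adipocyte path. Without mitochondrial genes the Osteoblast progenitor difference was 2.31 points and the chondrocyte path difference 4.46. Without osteoblast markers the differences were 7.98 points in Pre-osteoblast/chondrocyte cells, 7.29 in Pro-osteoblast cells, 7.87 on the osteoblast path and 4.4 on the chondrocyte path. With 1 library or 1 sample left out, the path differences were 3.81 to 4.31 points on the chondrocyte path and 0.483 to 0.573 on the adipocyte path. Rps27, Rpl35, Rpl7l1, Rpl27, Rpl9 and Rpl39l gave 188 to 310 counts each in all passing cells, and this depth limits what their tests can show.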

Other observations

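The members were not spread alike over barcodes inside and outside the authors' filter. Rpl39l gave 111 and 199 counts among 81352 and 192549 member counts in passing cells of Stroma1 and Stroma2, and 3 and 18 counts among 460849 and 1228601 member counts in barcodes that did not pass. As a percent of member counts, its level in barcodes that did not pass was 0.0142 times that of passing cells in Stroma2, and in Stroma1 the ratio rests on 3 counts. Rpl22l1 stood at 0.582 and 0.638 times its level in passing cells, and Rps27 at 0.480 and 0.671 times. Rps2 stood at 1.61 and 1.84 times and Rpl32 at 1.54 and 1.48 times. These genes were picked after their values were seen, and the values are a description with no test.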
